A study of Mus musculus with 10 samples.

Results

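Transcript levels of 10 genes that write, maintain, recognise or remove DNA methylation were followed in cells from mouse testes at postnatal day 18. They were chosen by symbol from the 23420 gene rows of each count file, and all 10 had a row. The genes are the maintenance genes Dnmt1, Uhrf1 and Uhrf2, the de novo genes Dnmt3a, Dnmt3b and Dnmt3l, the germline silencing gene Morc1, and the demethylation genes Tet1, Tet2 and Tet3. Polyadenylated RNA was sequenced from 5 Ino80cKO and 5 Ino80WT libraries, made from cell suspensions of digested seminiferous tubules, with no sort described. Ino80cKO testes carry a testis-specific deletion of Ino80, the ATPase of a chromatin remodelling complex, made with Stra8-Cre, a recombinase driven from the Stra8 promoter in male germ cells. All mice were of mixed background, and the sources used here do not give whether Ino80WT mice carried Stra8-Cre or floxed alleles.

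DNA methylation in mammals sits mostly on cytosines of CG dinucleotides. DNMT1 copies the pattern onto the new strand after replication, guided by UHRF1, which binds hemimethylated DNA. DNMT3A and DNMT3B place new methyl groups, in germ cells with the catalytically inactive partner DNMT3L, and the TET dioxygenases oxidise methylcytosine as a step towards its removal. In the male germ line most de novo methylation is laid down before birth, in prospermatogonia, and at the age studied here the first wave of germ cells is in meiotic prophase.

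Gene counts ranged from 16750609 to 23700094 per library, and the floor of 3 counts corresponded to 0.127 to 0.179 CPM, which covers counting error only. CPM here are counts scaled to a common library size with TMM factors. Nothing in the labels ties a library to its own animal, so the p-values reflect spread among libraries that may be partly technical. Ino80WT 1 stood apart, with 7.08% of its gene counts in the ribosomal RNA gene Rn45s (at most 4.67% in the other 9) and low levels of genes with long exons. Ino80 itself had 96.1 ± 1.37 CPM in Ino80cKO and 94.96 ± 12.6 CPM in Ino80WT (SD, n = 5 each; adjusted p = 0.889 by edgeR), so the gene-level count did not check the labels. The germ cell gene Ddx4 was high in both groups. Of 9 listed spermatid genes, 3 (Prm1, Prm2 and Tnp2) had 0 counts in all 10 libraries, but others were detected. Acr had a mean of 13.8 CPM in Ino80cKO and 38.5 CPM in Ino80WT, and Spaca1 6.06 CPM in Ino80cKO and 6.07 CPM in Ino80WT. Unless stated otherwise, log2 fold changes are Ino80cKO over Ino80WT with their SE, n = 5 libraries per group, and adjusted p comes from the quasi-likelihood test of edgeR, Benjamini-Hochberg adjusted over 15265 tested genes. A gene was called at adjusted p below 0.05.

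The start regions of these genes differ widely in CG content, the substrate of the encoded enzymes. RefSeq (GRCm38.p6) gave a start window for 9 of the 10 genes, and the 250 bases before each start were examined. Shown are the CG-rich starts of Dnmt1, Uhrf1 and Tet2 and the CG-poor first start of Dnmt3l, with each CG in capitals, 5′ to 3′ on the gene's strand. The Dnmt1 start is the third listed (chr9:20952624-20952873, minus strand, 26 CG), the Uhrf1 start the second listed (chr17:56304063-56304312, plus strand, 30 CG), the Tet2 start the only listed one (chr3:133544391-133544640, minus strand, 51 CG) and the Dnmt3l start the first listed (chr10:78042037-78042286, plus strand, 5 CG).
Dnmt1: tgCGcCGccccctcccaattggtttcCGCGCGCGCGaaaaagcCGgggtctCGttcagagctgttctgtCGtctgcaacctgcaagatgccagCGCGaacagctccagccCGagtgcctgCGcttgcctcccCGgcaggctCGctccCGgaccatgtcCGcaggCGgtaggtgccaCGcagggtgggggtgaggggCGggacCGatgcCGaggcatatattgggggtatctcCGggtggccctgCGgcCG
Uhrf1: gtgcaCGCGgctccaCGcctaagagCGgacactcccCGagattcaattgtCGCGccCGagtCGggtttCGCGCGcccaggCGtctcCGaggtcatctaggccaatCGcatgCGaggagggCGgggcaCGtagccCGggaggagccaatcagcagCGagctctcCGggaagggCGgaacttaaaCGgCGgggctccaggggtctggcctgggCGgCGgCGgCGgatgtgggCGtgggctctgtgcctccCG
Tet2: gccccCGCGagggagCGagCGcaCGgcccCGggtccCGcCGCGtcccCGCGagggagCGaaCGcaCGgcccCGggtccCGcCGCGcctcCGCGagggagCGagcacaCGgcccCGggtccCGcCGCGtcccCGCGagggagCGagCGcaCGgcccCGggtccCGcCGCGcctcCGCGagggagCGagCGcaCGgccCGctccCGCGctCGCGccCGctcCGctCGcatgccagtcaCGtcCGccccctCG
Dnmt3l: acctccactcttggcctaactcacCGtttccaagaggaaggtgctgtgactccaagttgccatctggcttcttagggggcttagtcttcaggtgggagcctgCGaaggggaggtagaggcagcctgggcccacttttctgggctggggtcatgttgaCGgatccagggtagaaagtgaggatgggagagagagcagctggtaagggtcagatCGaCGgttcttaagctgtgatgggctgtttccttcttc

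Over all 32851 such mouse windows the median was 6 CG, with quartiles at 2 and 16. Both listed starts of Uhrf1 (10 and 30 CG) and the start of Uhrf2 (23 CG) lay above that median, as did the starts of Dnmt3a (15 to 40 CG), Dnmt3b (21 CG), Tet1 (15 CG) and Tet3 (17 CG). The 3 starts of Dnmt3l held 3 to 5 CG, and the most upstream start of Dnmt1 held 2 CG. The letters TTTNNCGC, the core of E2F sites, matched in both Uhrf1 windows and in the third Dnmt1 window, but in no window of the other listed genes; 4.28% of all windows hold a match. CCAAT matched in both Uhrf1 windows, in 2 of the 3 Dnmt1 windows and in the Tet3 window, against 33.8% of all windows. CACGTG matched in the third Dnmt3a and the second Dnmt3l window (6.02% of all windows), CNCCTCAG in the second Dnmt3l window (6.42%) and the NRF1 motif in none of the 16 windows (3.74%). All motifs were searched on both strands, and a match describes the letters only.

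Per kilobase of exon, the maintenance genes Dnmt1 and Uhrf1 were the most abundant of the 10 and Dnmt3l the least. In Ino80cKO the order by CPM per kilobase of GENCODE M21 union exon length was Dnmt1 (34.6 ± 2.17), Uhrf1 (33.0 ± 2.77), Dnmt3a (10.4 ± 0.84), Dnmt3b (10.02 ± 0.85), Tet3 (9.18 ± 1.08), Uhrf2 (7.58 ± 0.28), Morc1 (3.87 ± 0.35), Tet2 (1.75 ± 0.32), Tet1 (0.93 ± 0.09) and Dnmt3l (0.15 ± 0.05). In Ino80WT it was Uhrf1 (42.2 ± 4.86), Dnmt1 (32.5 ± 2.96), Dnmt3b (9.21 ± 0.77), Dnmt3a (7.97 ± 1.11), Tet3 (6.70 ± 1.45), Uhrf2 (6.22 ± 0.46), Morc1 (4.18 ± 0.36), Tet2 (1.16 ± 0.25), Tet1 (0.69 ± 0.15) and Dnmt3l (0.19 ± 0.08). Uhrf1 lay above Dnmt1 without overlap of libraries in Ino80WT, whereas their ranges overlapped in Ino80cKO. From Dnmt3a and Dnmt3b through Tet3 to Uhrf2, neighbours overlapped in both groups. Tet2 and Tet1 overlapped in Ino80WT and did not in Ino80cKO. Union length takes in all annotated exons of a gene, and the annotation used for counting is not stated. The order of the genes, and the shares by length given below, depend on these lengths, which the SD does not cover.

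Of the 10 genes, all passed the count filter, 5 were called higher in Ino80cKO and 1 lower. Uhrf2, Dnmt3a, Tet1, Tet2 and Tet3 rose, Uhrf1 fell, and Dnmt1, Dnmt3b, Dnmt3l and Morc1 did not pass. Among all tested genes 18.3% were called higher and 27.6% lower, 45.9% in all. The median log2 fold change of the 10 was 0.20, against 0.02 over all tested genes. Groups did not overlap in CPM for Uhrf2 and Dnmt3a, both higher (9.96% of tested genes), and for Uhrf1, lower (22% of tested genes; 32% in either direction). With library totals in place of TMM the median of all tested genes moved to 0.19 and that of the 10 to 0.38, the same 5 genes and also Dnmt1 and Dnmt3b were called higher, and Uhrf1 was no longer called.

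**Figure D1:**
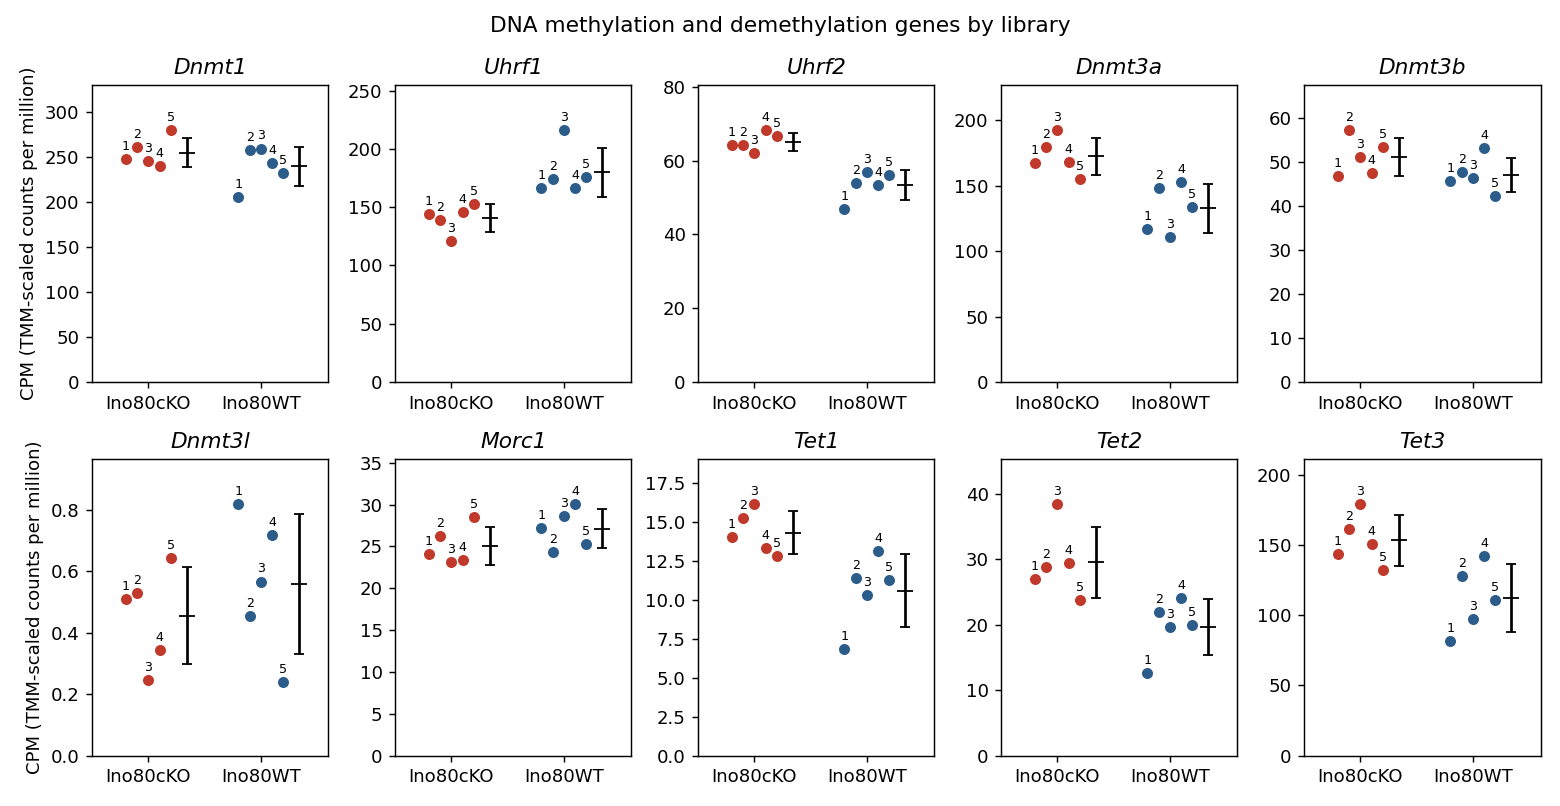
CPM after TMM scaling (linear vertical axes from 0) of each gene in the 5 Ino80cKO libraries (red, left) and the 5 Ino80WT libraries (blue, right); numbers are replicate numbers and black bars are mean ± SD. The groups are apart for Uhrf1, Uhrf2 and Dnmt3a and overlap for the other 7 genes.

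Uhrf1, the ubiquitin ligase that brings DNMT1 to hemimethylated CG, was the only one of the 10 genes called lower. It lies on chromosome 17 from 56303321 to 56323486. Uhrf1 had 144, 139, 121, 145 and 153 CPM in Ino80cKO libraries 1 to 5, against 167, 174, 216, 166 and 176 CPM in Ino80WT libraries 1 to 5. Every Ino80cKO library was below every Ino80WT library, with Ino80WT 3 the highest of all and Ino80cKO 3 the lowest. This was a log2 fold change of -0.36 ± 0.09 (1.28-fold lower, adjusted p = 0.00642). Without Ino80WT 3 it was -0.28 (adjusted p = 0.0098), without library 3 of both groups -0.21 (adjusted p = 0.0287), and by library totals -0.18 (adjusted p = 0.0817).

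Uhrf2, the paralog of Uhrf1 that does not replace it in maintenance methylation, moved the other way. On chromosome 19 from 30030513 to 30093722, it had 64.2, 64.4, 62.2, 68.3 and 66.7 CPM in Ino80cKO libraries 1 to 5, against 46.8, 54.0, 56.9, 53.4 and 56.2 CPM in Ino80WT libraries 1 to 5. All Ino80cKO libraries lay above all Ino80WT libraries, and the Ino80cKO libraries had the smallest spread of any of the 10 genes (coefficient of variation 3.66%). Its log2 fold change was 0.28 ± 0.07 (1.22-fold higher, adjusted p = 0.00557). Uhrf2 made up 18.7 ± 0.95% of the per-length UHRF level in Ino80cKO and 12.9 ± 0.97% in Ino80WT (SD, n = 5 each).

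Dnmt1, the maintenance methyltransferase (chromosome 9, 20907209 to 20959888), had 239.7 to 279.9 CPM in Ino80cKO and 206 to 259.6 CPM in Ino80WT. The groups overlapped, and the log2 fold change of 0.09 ± 0.08 did not pass (adjusted p = 0.372), with a 95% interval from -0.08 to 0.26. By library totals it was 0.26 (adjusted p = 0.0129).

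Among the de novo genes Dnmt3a rose while Dnmt3b and Dnmt3l did not pass. Dnmt3a (chromosome 12, 3806007 to 3914443) encodes the methyltransferase needed for paternal methylation marks. It had 168, 179, 192, 168 and 155 CPM in Ino80cKO libraries 1 to 5, against 117, 149, 111, 153 and 134 CPM in Ino80WT libraries 1 to 5. The groups did not overlap, although the lowest Ino80cKO library (5) and the highest Ino80WT library (4) lay close together. Dnmt3a had a log2 fold change of 0.38 ± 0.10 (1.30-fold higher, adjusted p = 0.00785).

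Dnmt3b, which methylates repeats and germline gene promoters, had 46.7 to 57.2 CPM in Ino80cKO and 42.3 to 53.1 CPM in Ino80WT. Its log2 fold change was 0.12 ± 0.08 (adjusted p = 0.241; 0.29 and adjusted p = 0.0174 by library totals). It lies on chromosome 2 from 153649450 to 153687730, and its near-copy Dnmt3c, a rodent gene of the male germ line, starts 8922 bases further along the same strand. Dnmt3c had no row among the counted genes. Reads not uniquely aligned were counted for no gene, so reads common to both may be missing from Dnmt3b, and its level is uncertain. Dnmt3l was close to the floor, with 5 to 13 counts per library in Ino80cKO (50 in all) and 4 to 16 in Ino80WT (54 in all). Its log2 fold change of -0.29 ± 0.34 (adjusted p = 0.498) had a 95% interval from -1.03 to 0.45, and a change of the size seen for Dnmt3a was not detectable at this depth. Dnmt3a shares 133 exon bases with an antisense gene, Dnmt3l 67 and Tet2 43, and the strand setting of the counting is not stated in the sources at hand.

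Morc1, a germline ATPase needed to silence transposons (chromosome 16, 48431237 to 48630900), had 23.1 to 28.5 CPM in Ino80cKO and 24.3 to 30.1 CPM in Ino80WT. The log2 fold change was -0.11 ± 0.09 (adjusted p = 0.305), and its sign turned under library totals (0.06, adjusted p = 0.628).

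All 3 TET genes were called higher, and Tet2 had the largest log2 fold change of the 10 genes. Tet2 (chromosome 3, 133463679 to 133545139), a dioxygenase without a CXXC domain of its own, had 27.0, 28.8, 38.4, 29.5 and 23.8 CPM in Ino80cKO libraries 1 to 5, against 12.7, 22.0, 19.7, 24.02 and 19.9 CPM in Ino80WT libraries 1 to 5. Ino80cKO 5 fell just under Ino80WT 4, and the other 4 Ino80cKO libraries were above all Ino80WT libraries. Tet2 had a log2 fold change of 0.58 ± 0.16 (1.498-fold higher, adjusted p = 0.0124).

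Tet3, the TET enzyme of the early embryo's paternal genome, was the most abundant of the 3 (chromosome 6, 83362373 to 83459084). It had 143, 161, 179, 151 and 132 CPM in Ino80cKO libraries 1 to 5, against 81.3, 128, 97.2, 142 and 111 CPM in Ino80WT libraries 1 to 5. Ino80WT 4 reached into the Ino80cKO range and Ino80WT 1 was the lowest. The log2 fold change was 0.45 ± 0.14 (1.37-fold higher, adjusted p = 0.0184), and without Ino80WT 3 and Ino80cKO 3 it was 0.36 (adjusted p = 0.0683).

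Tet1, which acts on methylation in primordial germ cells (chromosome 10, 62804570 to 62908996), had 14.02, 15.3, 16.2, 13.4 and 12.8 CPM in Ino80cKO libraries 1 to 5, against 6.86, 11.4, 10.3, 13.1 and 11.3 CPM in Ino80WT libraries 1 to 5. Ino80WT 4 lay above Ino80cKO 5, and Ino80WT 1 stood lowest. The log2 fold change was 0.43 ± 0.15 (1.35-fold higher, adjusted p = 0.032). This call was lost without any 1 of Ino80cKO 1, 2 or 3 or Ino80WT 3 (adjusted p = 0.0533 to 0.0695), or without library 3 of both groups (0.39, adjusted p = 0.0831).

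**Figure D2:**
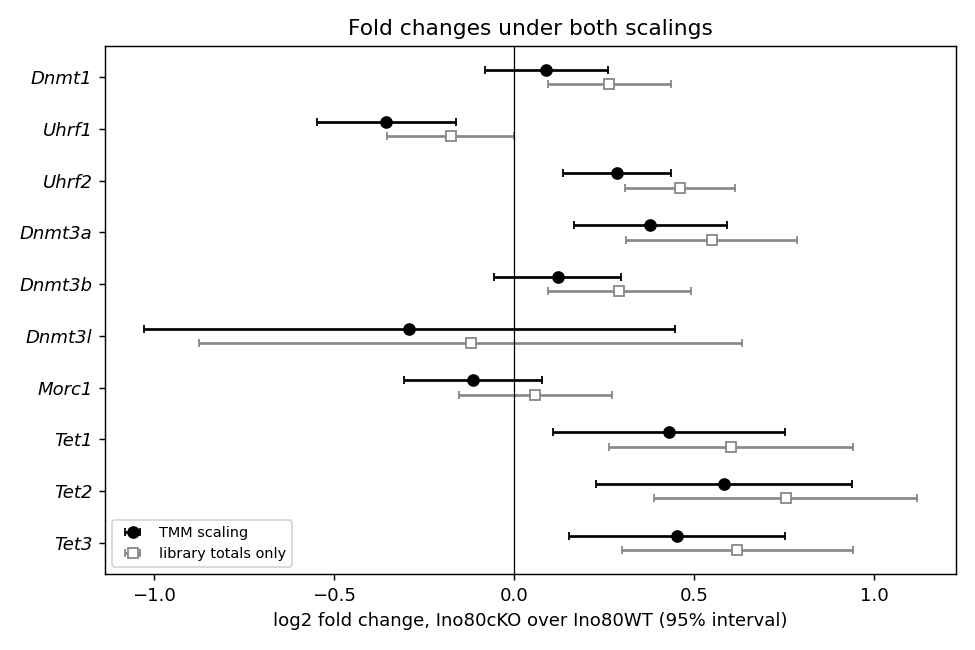
Log2 fold change of each gene, Ino80cKO over Ino80WT, with 95% intervals, under TMM scaling (filled circles) and library totals only (open squares). Library totals shift every gene to the right; Uhrf1 stays below 0 (-0.36 and -0.18), Morc1 crosses it, and the TET genes stay above it.

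The balance within the family does not depend on library scaling, because a ratio of 2 counts in 1 library cancels it. A ratio does not cancel an effect of exon length, which was 4259 bases for Uhrf1, 7377 for Dnmt1 and 8590 for Uhrf2. No ratio was tested with exon length taken into account. Differences in the mean log2 ratio between the groups were tested for 7 ratios by an exact two-sided permutation test over all assignments of the libraries, adjusted over the 7. The Uhrf1/Dnmt1 ratio of counts was 0.494 to 0.607 in Ino80cKO and 0.675 to 0.832 in Ino80WT, a log2 difference of -0.44 with no overlap (exact p = 0.00794, the smallest this test can give; adjusted p = 0.0278). The Uhrf2/Uhrf1 ratio was 0.437 to 0.513 in Ino80cKO and 0.263 to 0.321 in Ino80WT, a log2 difference of 0.64, again with no overlap (exact p = 0.00794, adjusted p = 0.0278). In both, every Ino80cKO library lay on the same side of every Ino80WT library.

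The other 5 ratios did not pass. The Dnmt3a/Dnmt1 ratio was 0.555 to 0.784 in Ino80cKO and 0.428 to 0.629 in Ino80WT (log2 difference 0.29), and the Dnmt3b/Dnmt3a ratio was 0.265 to 0.343 in Ino80cKO and 0.316 to 0.418 in Ino80WT (-0.27), each with exact permutation p = 0.0397 and adjusted p = 0.0694. The groups overlapped in both. The Dnmt3l/Dnmt3a log2 difference was -0.64 (adjusted p = 0.167 by the exact permutation test). The Tet2/Tet1 ratio was 1.86 to 2.38 in Ino80cKO and 1.77 to 1.92 in Ino80WT (0.14, adjusted p = 0.133 by the exact permutation test). The Tet3/Tet1 ratio differed by 0.01 on the log2 scale (adjusted p = 0.849 by the exact permutation test). By length, Tet3 made up 77.5 ± 0.70% of the TET level in Ino80cKO and 78.4 ± 1.59% in Ino80WT, while the summed TET level was 11.9 ± 1.47 CPM per kilobase in Ino80cKO and 8.55 ± 1.83 in Ino80WT (SD, n = 5 each).

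**Figure D3:**
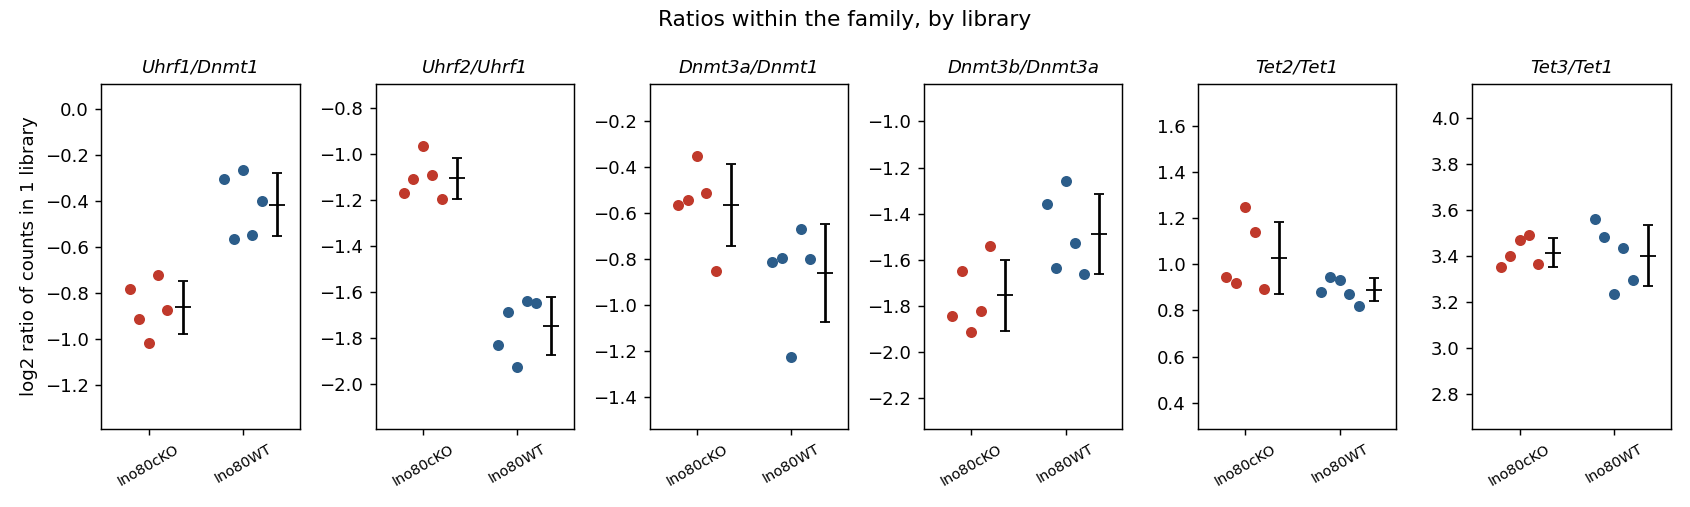
Log2 ratio of 2 genes' counts within each library for 6 of the 7 ratios, Ino80cKO (red, left) and Ino80WT (blue, right), with mean ± SD in black; every panel spans 1.5 log2 units. Uhrf1/Dnmt1 and Uhrf2/Uhrf1 separate the groups, and Tet3/Tet1 lies at the same height in both.

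Markers of some other cell types and stages moved with these results, and in bulk samples fewer cells of a type and less RNA per cell cannot be told apart. The marker counts can be read against the 18.3% called higher and 27.6% lower over all tested genes. All 14 listed pachytene spermatocyte genes were called lower, with a summed level of 1243 to 2231 CPM in Ino80cKO and 3563 to 6475 CPM in Ino80WT. Of 10 Sertoli cell genes 5 were called higher and none lower, with sums of 1366 to 1973 CPM in Ino80cKO and 1007 to 1526 CPM in Ino80WT. Of 12 genes of undifferentiated spermatogonia 4 were higher and none lower (443 to 513 CPM in Ino80cKO, 311 to 436 CPM in Ino80WT), and of 8 macrophage genes 4 were higher and none lower (72.8 to 114 CPM in Ino80cKO, 53.9 to 77.0 CPM in Ino80WT). Leydig cell genes (4 of 6 higher) and peritubular genes (3 of 7 higher) had none lower, and of 5 endothelial genes none was called. Genes of early meiotic prophase were lower in 5 of 10 and higher in 1, differentiating spermatogonial genes lower in 2 and higher in 2 of 10, and of 3 tested spermatid genes 1 was lower. In Ino80cKO, library 3 had the lowest pachytene sum, the highest Sertoli sum, the highest Dnmt3a, Tet1, Tet2 and Tet3 and the lowest Uhrf1, while library 5 had the highest pachytene sum, the lowest Sertoli sum, the lowest Dnmt3a, Tet1, Tet2 and Tet3 and the highest Uhrf1. In Ino80WT, library 3 had the highest pachytene sum, Uhrf1 and Uhrf2 and the lowest Sertoli sum and Dnmt3a, library 4 had the lowest pachytene sum and Uhrf1 and the highest Dnmt3a, Tet1, Tet2 and Tet3, and library 1 had the highest Sertoli sum and the lowest Tet1, Tet2 and Tet3. The part of these differences in the results was not tested.

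Exon length also moved with them. Dnmt3a, Tet1, Tet2 and Tet3 have union exon lengths of 15457 to 16870 bases. Of the 766 tested genes of 12 kb or more, 24.02% were called higher and 17.8% lower (median log2 fold change 0.11), and the 2075 genes under 2 kb had 7.95% higher, 38.3% lower and a median of -0.15. Genes of 12 kb or more had their lowest level in Ino80WT 1, with a median of -0.35 from their own mean on the log2 scale, against -0.01 to 0.14 in the other 9 libraries. With an offset for exon length in each library, added after the data were seen, Tet2 had a log2 fold change of 0.52 (adjusted p = 0.00313), Tet3 of 0.39 (0.00689), Tet1 of 0.38 (0.0127), Dnmt3a of 0.30 (0.0143), Uhrf2 of 0.26 (0.00334) and Uhrf1 of -0.31 (0.00905), each adjusted p from edgeR. Without Ino80WT 1, Tet2 was at 0.49 (adjusted p = 0.0112), Tet3 at 0.38 (adjusted p = 0.0213) and Tet1 at 0.34 (adjusted p = 0.0248).

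For each called gene, the tested genes with the most similar profile over the 10 libraries were found by the root mean square difference of centred log2 CPM, among 12338 candidates. The closest were Tmcc1 (0.04) and Mprip (0.04) to Uhrf1, Usp48 (0.05) and Dyrk1a (0.06) to Uhrf2, Atp8b2 (0.04) and Slc2a12 (0.04) to Dnmt3a, Zfp871 (0.05) and Arhgef12 (0.07) to Tet1, Hcfc1 (0.08) and Lrp1 (0.08) to Tet2, and Man2a1 (0.05) and Lama1 (0.06) to Tet3. The genes' own spread around their mean was 0.16 (Uhrf2) to 0.41 (Tet2) on the same scale. The difference between the groups is part of this likeness, which says nothing of function.

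The proteins that work with these enzymes were examined through lists of related genes. Counts in a list can be read against the 18.3% higher and 27.6% lower over all tested genes. Genes listed as partners of maintenance methylation were mostly not called: 2 of 10 genes fell, none rose, and the median log2 fold change was -0.08. Whether each encoded protein, PAF1 included, takes part in maintenance methylation was not examined. By library totals 4 rose, 1 fell and the median was 0.10. Pcna, the replication clamp that also holds DNMT1 at the fork, had 158 ± 16.9 CPM in Ino80cKO and 221 ± 17.7 CPM in Ino80WT (1.40-fold lower, log2 -0.48 ± 0.09, adjusted p = 0.000805). Trim28, the corepressor that protects imprints together with KRAB zinc finger proteins, had 389 ± 45.0 CPM in Ino80cKO and 504 ± 62.5 CPM in Ino80WT (log2 -0.37 ± 0.10, adjusted p = 0.011). Pcna and Trim28, like Uhrf1, had no overlap between the groups. The tRNA methyltransferase gene Trdmt1, once named Dnmt2, had 25.1 ± 1.88 CPM in Ino80cKO and 25.8 ± 2.45 CPM in Ino80WT (log2 -0.04 ± 0.09, adjusted p = 0.742).

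MBD family and ZBTB zinc finger genes, listed as readers of methylated CG, moved both ways, 3 of 10 genes rising and 2 falling around a median of 0.19. Whether each encoded protein, MBD3 included, binds methylated CG was not examined. In 17 of 21 alternative settings 1 gene was lower in place of 2, and by library totals 8 were higher. Mbd3, a NuRD subunit, had 77.1 ± 7.85 CPM in Ino80cKO and 110 ± 18.2 CPM in Ino80WT (log2 -0.51 ± 0.11, adjusted p = 0.0031). Zbtb33, which encodes Kaiso, had 48.7 ± 2.02 CPM in Ino80cKO and 36.1 ± 5.50 CPM in Ino80WT (log2 0.43 ± 0.10, adjusted p = 0.00435), and Zbtb38 had 39.3 ± 3.48 CPM in Ino80cKO and 27.5 ± 5.40 CPM in Ino80WT (log2 0.51 ± 0.13, adjusted p = 0.00736). Among 8 partners of methylcytosine oxidation, 2 rose and 1 fell (median 0.18), with 1 to 5 higher over the alternative settings. Ogt, the sugar transferase that binds TET proteins, rose to 240.2 ± 18.6 CPM in Ino80cKO, against 175 ± 29.2 CPM in Ino80WT (1.37-fold, log2 0.46 ± 0.11, adjusted p = 0.00541). D2hgdh, a dehydrogenase gene whose substrate inhibits TET enzymes, had 17.7 ± 3.69 CPM in Ino80cKO and 13.7 ± 0.89 CPM in Ino80WT (log2 0.37 ± 0.13, adjusted p = 0.0364). Ogt and Zbtb33 are X-linked, as is Morc4, and the 548 tested X-linked genes found by symbol had a median log2 fold change of 0.34, against 0.00 for 13584 autosomal genes.

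Base excision genes, which replace oxidised methylcytosine, were called in both directions. Of 13 tested genes 3 fell and 2 rose (median 0.23). In 21 alternative settings 3 were lower throughout, but 1 to 6 were higher. For example, 1 was higher under the replicate block, without Ino80cKO 1 or without Ino80cKO 5, and 5 were higher without Ino80WT 1. The median was 0.09 without Ino80cKO 5, 0.33 without Ino80WT 1 and 0.09 with the filter at 1 CPM. Polb, the gap-filling polymerase, had 50.1 ± 5.60 CPM in Ino80cKO and 98.5 ± 13.6 CPM in Ino80WT (1.97-fold lower, log2 -0.98 ± 0.11, adjusted p = 6.2e-05). Xrcc1, the scaffold of the ligation step, had 68.6 ± 4.09 CPM in Ino80cKO and 102 ± 17.5 CPM in Ino80WT (log2 -0.57 ± 0.11, adjusted p = 0.00103). Lig3, the ligase bound by XRCC1, was the third gene called lower and Neil2, a glycosylase, the other one called higher, both named after their values were seen. Tdg, the glycosylase that excises oxidised methylcytosine, had 1.14 ± 0.25 CPM in Ino80cKO and 0.49 ± 0.15 CPM in Ino80WT (log2 1.21 ± 0.26, adjusted p = 0.00258), a low level that is uncertain because Tdg has close copies in the genome. Genes listed under the S-adenosylmethionine cycle, which supplies the methyl groups, were nearly all without a call. Ahcyl1 was lower (log2 -0.18 ± 0.06, adjusted p = 0.0353), none was higher and the median was 0.13 over 10 genes. Whether each encoded protein, AHCYL1 included, is an enzyme of this cycle was not examined. No gene of this list was called lower in 15 of 21 alternative settings, and 0 to 6 were called higher.

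In the list for piRNA-directed methylation of transposons, 8 of 11 genes fell and none rose (median log2 fold change -0.81). The 3 without a call, named after their values were seen, were Piwil4 (log2 0.36 ± 0.17, adjusted p = 0.105), Tex15 (0.13 ± 0.16, adjusted p = 0.513) and Fkbp6 (-0.10 ± 0.09, adjusted p = 0.363). Mael, a nuage protein, had 338 ± 54.8 CPM in Ino80cKO and 722 ± 124 CPM in Ino80WT (log2 -1.10 ± 0.13), and Asz1 (log2 -0.72 ± 0.08) and the helicase gene Tdrd9 (-0.91 ± 0.11) were also called lower, with adjusted p of 5.9e-05 to 9.0e-05 for the 3. The pachytene marker sums given above moved with this list, and their part was not tested. Of 4 relatives of Morc1, 2 fell and 1 rose: Morc2b had 83.3 ± 19.7 CPM in Ino80cKO and 214.5 ± 53.9 CPM in Ino80WT (2.58-fold lower, log2 -1.36 ± 0.19, adjusted p = 0.00021), Morc3 had a log2 fold change of -0.53 ± 0.08 (adjusted p = 0.000367), and Morc4 rose to 13.6 ± 0.95 CPM in Ino80cKO, against 8.17 ± 0.58 CPM in Ino80WT (log2 0.74 ± 0.09, adjusted p = 0.000113). Whether Morc1 changed less than these relatives was not tested.

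Germline genes that carry promoter methylation in somatic cells fell in 8 of 10 cases and rose in 1 (median -0.69), again beside the lower pachytene sums. Ddx4, the germ cell RNA helicase, had 436 ± 46.4 CPM in Ino80cKO and 824 ± 105 CPM in Ino80WT, Brdt, a testis bromodomain gene, had a log2 fold change of -1.01 ± 0.12, and Tex101, a germ cell surface protein gene, of -0.78 ± 0.10 (adjusted p of 6.9e-05 to 0.000131 for the 3). Taf7l, also X-linked, was the 1 called higher and Dazl the 1 without a call, both named after their values were seen. No methylation was measured in these libraries, so none of these values says how much methylation the genes carry.

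**Figure D4:**
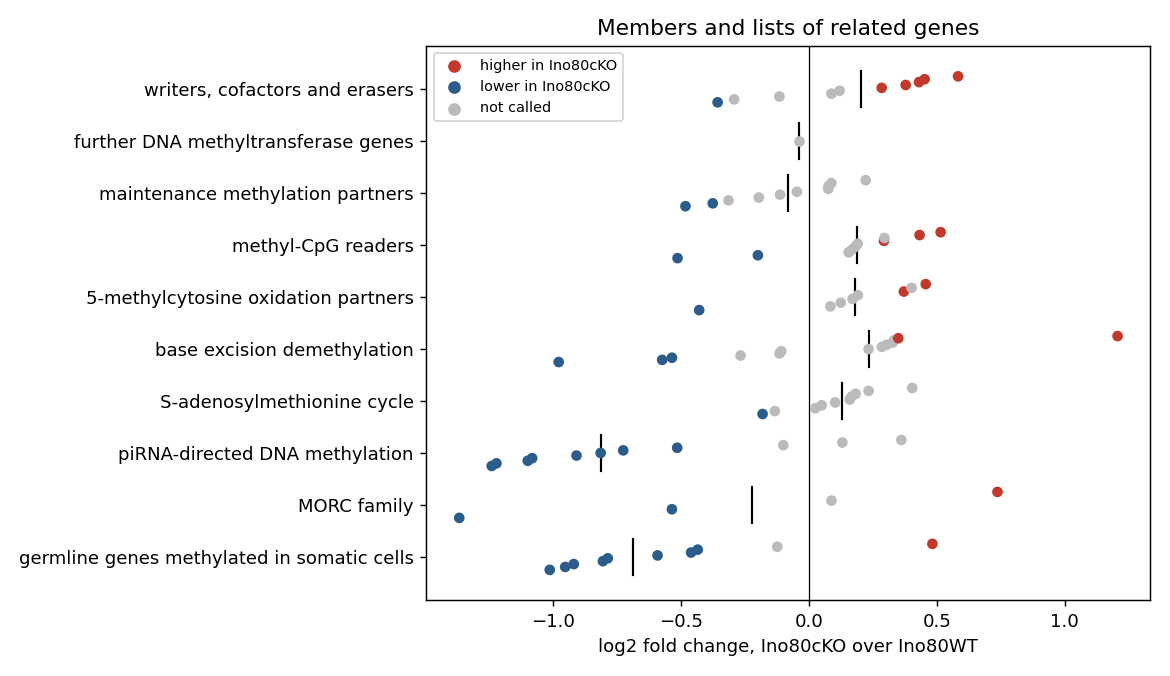
Log2 fold change, Ino80cKO over Ino80WT, of each tested gene (points) in the 10-gene set at the top and in 9 lists of related genes; red points were called higher, blue points lower and grey points not called, and black lines are list medians. The median is -0.81 for the piRNA list and 0.20 for the 10 genes; that of the base excision list, 0.23, is 0.09 without Ino80cKO 5.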

How the data were processed

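Polyadenylated RNA of 10 libraries (5 Ino80cKO, 5 Ino80WT) was measured by stranded sequencing, per the labels' protocols. The authors deposited whole-number counts of reads per gene, not normalized; mm10, DESeq2, HTSeq and TopHat2 appear, with no role or version, in the submitters' processing notes, and the sources at hand state neither the annotation nor the strand setting. The 5 rows of each file that name no gene held 35.5% to 44.0% of reads (18.4% to 26.3% not uniquely aligned) and were left out. Depth is given with the results. The floor covers counting error only, while the 95% intervals come from the edgeR fit and include the spread among libraries.

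The test was the robust quasi-likelihood F-test of edgeR 4.0.16 (R 4.3.3), on genotype alone, after filterByExpr (minimum count 10, minimum total 15) and TMM factors. Tested on simulated counts for this comparison (15175 genes passing), 91% of 100 genes changed by 1 on the log2 scale and 46.5% of 99 changed by 0.5 were called, none in the wrong direction. Far fewer genes were changed there than the 45.9% called in the data. The adjustment depends on that share, so these rates need not hold for the data. Ratios used 0.5 added to each count. Exon lengths came from GENCODE M21 for 93.6% of tested genes, on the same build. List genes were matched by current or older RefSeq symbol. Named genes are the 10, up to 3 called genes of each list with the smallest p (1 where none was called), and the 2 nearest profiles; 1 gene that this rule names is not reported here.

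Alternatives were a replicate block, DESeq2 1.42.0, limma-voom (limma 3.58.1), RLE scaling, library totals, no filter, a filter at 1 CPM in 5 libraries, no Rn45s, each library left out, Ino80WT 1 and 2 left out, library 3 of both groups left out, and, added after the data were seen, an offset for exon length. The genes and lists were chosen with earlier results of these data known. No libraries were duplicates (lowest chi-square per degree of freedom 9.4).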

Additional observations from a re-analysis of the deposited data

Results flagged for a closer look

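Of 34 groups of 5 values checked (10 genes and 7 ratios in both groups), 1 held a library far from the others, and chance alone marks about 1 in 20. Uhrf1 was at 216 CPM in Ino80WT 3, with the other 4 Ino80WT libraries at 166 to 176 CPM, a gap of 0.8 of the group's range against a critical value of 0.71. The same library had the highest pachytene sum of the series, 6475 CPM.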

How the results depend on the processing

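Of 209 values of the 10 genes under 21 alternative settings, 198 kept their direction and their side of the threshold, 8 lost a call, 2 gained one and 1 changed sign. Uhrf2, Dnmt3a and Tet2 kept theirs in all 21. By library totals 5484 genes were higher and 2937 lower, 7 of the 10 genes were higher and 0 lower, and the Morc1 log2 fold change was 0.058. Without library 3 of both groups 3 of the 10 were higher. Leaving out 1 library gave 2135 to 3284 genes higher, 3610 to 4275 lower, and 4 to 5 of the 10 higher with 1 lower. With the exon length offset 3719 genes were higher and 3554 lower.

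The replicate block gave 1921 genes higher and 3572 lower, with Tet1 at 0.46 (adjusted p = 0.0505 by edgeR) and no other call of the 10 genes changed; the numbers did not pair the libraries (correlations of deviations -0.47 to 0.20, 1 of 5 libraries best with its own number). Under it the Uhrf1/Dnmt1 (-0.44) and Uhrf2/Uhrf1 (0.64) ratios had adjusted p = 0.219 by a paired exact permutation test that cannot pass. These 2 ratios also lost their calls without Ino80WT 1 and 2 (-0.46 and 0.63, adjusted p = 0.0625 each by the exact permutation test). The same held without library 3 of both groups (-0.37 and 0.56, adjusted p = 0.1 each by that test). Fewer assignments exist there, and 2 ratios at the smallest possible p do not pass the adjustment, so these losses say nothing of the ratios. Over single libraries left out the 2 ratios ran from -0.48 to -0.41 and from 0.60 to 0.67, with every call kept. Dnmt3a/Dnmt1 passed without Ino80cKO 5 (0.37, adjusted p = 0.037, exact permutation test; 0.20 to 0.37 over single libraries). Tet3/Tet1 changed sign at small values: -0.042 without library 3 of both groups and -0.029 to 0.052 over single libraries. The cause was not tested. Depth limits Dnmt3l.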
